A study of Mus musculus with 34 samples.

Results

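Ciliated cell and axoneme genes were chosen by name: 31 mouse genes that encode the machinery of motile cilia, or its transcription factors, were looked up on the array through the RefSeq accession of each probe. Of the 31 genes, 30 were found among the 20660 named genes on the array, and all 30 were tested among 29315 genes and unnamed accessions (called units here). Ccdc40 was not matched to a probe. Where several probes named a gene, the one with the highest mean Cy5 signal was used.

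Motile cilia cover the multiciliated cells of the conducting airways and drive mucus and trapped particles out of the lung. Each cilium is built on an axoneme, a ring of doublet microtubules around a central pair, in which outer and inner dynein arms generate sliding and radial spokes, nexin links and the central pair regulate it. Foxj1 and the RFX factors are the transcription factors best known for switching on this set of genes.

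Lungs of 34 mice were profiled on two-colour arrays. Treated mice had received 1 dose, 18 or 54 µg in 40 µl, into the trachea 28 days earlier. Of the 3 carbon nanotube materials, coded NRCWE-043 to NRCWE-045, each treated mouse received 1. All mice were female C57BL/6 of 5 to 7 weeks with no genetic change named. Besides 5 controls there were 5 mice at each dose of NRCWE-043. NRCWE-044 had 6 mice at the lower and 5 at the higher dose, and NRCWE-045 had 3 and 5. The labels state 5 per group and do not say what the controls received, and the title of 1 control array names NRCWE-043 at 0 µg. RNA came from random sections of whole lung, so each value mixes airway and alveolar tissue, and fewer ciliated cells and less RNA per ciliated cell cannot be told apart. Lung RNA carried Cy5 and a reference RNA pooled from 11 mouse cell lines carried Cy3 on every array. The labels say nothing further on how the samples of a group were separated, so p-values measure the spread between these samples.

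The share of probes clearly detected in Cy5 ran from 50.8 to 68.5% over the arrays, and the number of arrays limits the precision. The arrays sat on 6 slides. The ciliated genes were readily measured in lung RNA: 25 of the 30 were above background in Cy5 on all 34 arrays. In the reference RNA 9 were above background on all arrays and 5 (Ccdc39, Ak7, Dnah5, Spag16 and Sntn) on none, so for those 5 the ratio is set against a reference signal near background. With those 5, 21 of the 30 fell short of background in the reference on at least some arrays. Spag17 was above it on 1 of 34, Dnah9 on 2, Dnah2 on 7 and Dnah6 on 10, so their ratios carry the same limit on most arrays. In the controls 23 of the 30 had a mean log2 ratio of lung over reference above 1. Only Mns1, a filament protein inside the doublets, lay below 0, at -0.30 ± 0.15 (SD, n = 5).

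Upstream sequence was available for 27 of the 31 genes from RefSeq (GRCm38.p6), as 250 bases before to 50 after the start. The letters GTTGCC, the core of the X-box bound by RFX factors, were searched on both strands. They occurred in at least 1 window of 15 of the 27 genes (55.6%) and of 3821 of all 27025 genes with a window (14.1%). Genes with several starts, such as Tekt1 and Tekt2, had several windows, and a match in any of them counted. The looser GTTNCC, which includes every GTTGCC, occurred in 24 (88.9%) against 48.8% of all genes. GTAAACA, a forkhead core, occurred in 3 (11.1%; Ak7, Cfap43 and Sntn) against 4.05%. These matches are descriptions of letters and not of binding. The 100 bases before the start are shown for 8 of the genes, of 5 roles in the cilium, that held GTTGCC there. Hydin and Tekt2 also held it there and are not shown. Sequences run 5′ to 3′ on the gene's strand, with the match (GTTGCC or its reverse complement GGCAAC) in capitals.
Enkur, chr2:21205366-21205465, minus strand: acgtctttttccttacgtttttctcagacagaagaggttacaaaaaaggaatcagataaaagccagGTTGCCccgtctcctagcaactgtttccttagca
Drc1, chr5:30281293-30281392, plus strand: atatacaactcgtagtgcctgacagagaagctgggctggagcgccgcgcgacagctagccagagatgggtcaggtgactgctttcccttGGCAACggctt
Dynlrb2, chr8:116504915-116505014, plus strand: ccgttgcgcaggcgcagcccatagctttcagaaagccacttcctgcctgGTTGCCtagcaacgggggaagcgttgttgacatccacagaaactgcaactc
Mns1, chr9:72438429-72438528, plus strand: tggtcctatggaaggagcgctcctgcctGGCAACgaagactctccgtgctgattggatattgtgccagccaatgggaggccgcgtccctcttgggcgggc
Tekt1, chr11:72361883-72361982, minus strand: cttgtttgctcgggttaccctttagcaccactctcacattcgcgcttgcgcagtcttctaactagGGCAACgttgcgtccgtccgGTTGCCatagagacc
Dnai2, chr11:114727319-114727418, plus strand: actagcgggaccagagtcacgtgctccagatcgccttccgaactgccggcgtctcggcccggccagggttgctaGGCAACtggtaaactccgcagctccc
Sntn, chr14:13670776-13670875, plus strand: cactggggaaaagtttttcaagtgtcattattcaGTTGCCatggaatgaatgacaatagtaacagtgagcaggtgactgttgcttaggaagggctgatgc
Cfap44, chr16:44394699-44394798, plus strand: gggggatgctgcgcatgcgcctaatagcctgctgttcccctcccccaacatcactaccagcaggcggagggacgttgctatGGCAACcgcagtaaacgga

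No ciliated gene passed the test in any of the 15 comparisons between groups or over all 7 groups. The test was limma's moderated test with Benjamini-Hochberg adjustment over all 29315 units at 0.05, and the smallest adjusted p of a ciliated gene was 0.613. At an unadjusted p under 0.05, 0 of 30 were past the threshold in 11 of the comparisons and 1 to 5 in the other 4, which are described with their values. Among all units 126 (0.43%) passed between NRCWE-043 and NRCWE-045 at 18 µg, 3 (0.0102%) between NRCWE-043 and NRCWE-044 at 18 µg, 1 (0.00341%) between NRCWE-043 and NRCWE-045 at 54 µg, 13 (0.0443%) over all 7 groups and 0 in the other 12 comparisons. What the ciliated genes did show was a shared level that differed from lung to lung, described after the values of single genes. The arrays of a group are given in the order of deposit, which carries no meaning, and the 6 lungs at 18 µg of NRCWE-044 by their lowest, median and highest value.

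Transcription factors come first. Foxj1, the master regulator of motile cilium formation, read 3.57, 3.93, 3.02, 3.48 and 2.90 in the 5 controls on the log2 scale of lung over reference. NRCWE-043 lungs read Foxj1 at 3.77, 2.72, 2.24, 3.48 and 3.08 after 18 µg and at 4.00, 2.99, 3.90, 3.08 and 3.20 after 54 µg. NRCWE-044 lungs read Foxj1 between 2.50 and 3.87 after 18 µg, with a median of 2.82, and at 3.73, 3.31, 3.33, 3.23 and 3.55 after 54 µg. NRCWE-045 lungs read Foxj1 at 3.59, 3.12 and 2.96 after 18 µg and at 3.89, 2.73, 3.15, 3.42 and 3.23 after 54 µg. The groups overlapped in every comparison, and the lowest value came from a lung given 18 µg of NRCWE-043. Rfx2, an X-box factor, read 0.02, 0.42, 0.00, 0.20 and 0.14 in the controls. NRCWE-043 lungs read Rfx2 at 0.32, 0.30, -0.17, 0.26 and 0.81 after 18 µg and at 0.55, 0.32, 0.85, -0.24 and 0.64 after 54 µg. NRCWE-044 lungs read Rfx2 between -0.11 and 0.56 after 18 µg, with a median of 0.19, and at 0.04, 0.35, 0.73, 0.05 and 0.39 after 54 µg. NRCWE-045 lungs read Rfx2 at 0.26, 0.14 and -0.16 after 18 µg and at 0.31, 0.06, 0.49, 0.03 and 0.25 after 54 µg. Both the lowest and the highest Rfx2 value lay in the group given 54 µg of NRCWE-043, and its mean there was 0.27 ± 0.17 (SE) above the controls (limma adjusted p = 0.978). Rfx3, a second X-box factor, read 0.24, 0.31, -0.19, 0.07 and -0.15 in the controls. NRCWE-043 lungs read Rfx3 at 0.16, -0.22, -0.06, 0.09 and -0.20 after 18 µg and at 0.39, -0.04, 0.40, 0.15 and -0.00 after 54 µg. NRCWE-044 lungs read Rfx3 between -0.43 and 0.24 after 18 µg, with a median of 0.12, and at 0.19, 0.17, -0.24, 0.20 and 0.03 after 54 µg. NRCWE-045 lungs read Rfx3 at 0.23, 0.08 and 0.05 after 18 µg and at 0.27, -0.20, -0.01, 0.06 and -0.09 after 54 µg. All Rfx3 groups overlapped, and its ratios stayed close to 0.

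Outer dynein arm genes encode the motors that set beat frequency. Dnai2, an intermediate chain, read 2.27, 2.57, 2.25, 2.73 and 1.90 in the controls. NRCWE-043 lungs read Dnai2 at 3.07, 2.00, 1.33, 2.27 and 2.36 after 18 µg and at 2.99, 1.72, 3.07, 2.27 and 2.18 after 54 µg. NRCWE-044 lungs read Dnai2 between 1.75 and 2.69 after 18 µg, with a median of 2.01, and at 3.16, 2.48, 2.31, 2.46 and 2.76 after 54 µg. NRCWE-045 lungs read Dnai2 at 2.76, 2.52 and 2.06 after 18 µg and at 2.56, 1.77, 2.15, 2.84 and 2.05 after 54 µg. With NRCWE-044 all 5 lungs at 54 µg lay above the median of the 18 µg lungs, but the groups overlapped. Dnah11, a heavy chain, read 2.54, 2.88, 2.36, 2.80 and 2.49 in the controls. NRCWE-043 lungs read Dnah11 at 3.00, 2.21, 1.70, 2.77 and 2.59 after 18 µg and at 2.75, 2.10, 3.25, 2.43 and 2.68 after 54 µg. NRCWE-044 lungs read Dnah11 between 2.06 and 2.95 after 18 µg, with a median of 2.54, and at 2.71, 2.61, 2.43, 2.76 and 2.69 after 54 µg. NRCWE-045 lungs read Dnah11 at 2.59, 2.40 and 2.29 after 18 µg and at 3.02, 2.10, 2.65, 2.41 and 2.47 after 54 µg. The Dnah11 groups overlapped throughout, and its lowest and highest lungs were both given NRCWE-043. Dnah9, another heavy chain, was above background in Cy5 on only 5 of 34 arrays and in 0 of the 5 controls, so its ratios have no measured level behind them in most lungs and no fold is given. Dnah9 read 0.01, -0.03, -0.03, 0.20 and -0.04 in the controls. NRCWE-043 lungs read Dnah9 at 0.12, 0.21, -0.29, 0.33 and 0.04 after 18 µg and at 0.34, -0.21, 0.16, 0.09 and 0.35 after 54 µg. NRCWE-044 lungs read Dnah9 between -0.20 and 0.40 after 18 µg, with a median of 0.13, and at 0.18, 0.30, -0.23, 0.11 and 0.05 after 54 µg. NRCWE-045 lungs read Dnah9 at 0.14, 0.35 and -0.54 after 18 µg and at 0.39, 0.08, 0.33, 0.40 and 0.10 after 54 µg. Dnah9 values lay on both sides of 0 in 6 of the 7 groups, and at 54 µg of NRCWE-045 all 5 lay above it.

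Dnah2, an inner arm heavy chain, read 4.31, 4.35, 3.67, 4.24 and 3.21 in the controls. NRCWE-043 lungs read Dnah2 at 4.63, 3.11, 2.12, 3.71 and 3.83 after 18 µg and at 4.71, 3.08, 4.78, 3.92 and 3.74 after 54 µg. NRCWE-044 lungs read Dnah2 between 3.27 and 4.54 after 18 µg, with a median of 3.53, and at 4.62, 3.88, 3.91, 4.22 and 4.39 after 54 µg. NRCWE-045 lungs read Dnah2 at 4.30, 3.81 and 3.51 after 18 µg and at 4.63, 3.55, 3.94, 4.13 and 3.56 after 54 µg. Its lowest lung, at 18 µg of NRCWE-043, and its highest, at 54 µg, belonged to the same material, and all groups overlapped. Zmynd10, which is needed to assemble dynein arms in the cytoplasm, read 2.37, 2.82, 2.45, 3.02 and 2.25 in the controls. NRCWE-043 lungs read Zmynd10 at 3.02, 2.19, 1.65, 2.49 and 2.62 after 18 µg and at 2.83, 1.71, 3.00, 2.45 and 2.26 after 54 µg. NRCWE-044 lungs read Zmynd10 between 1.73 and 2.74 after 18 µg, with a median of 2.20, and at 2.93, 2.59, 2.56, 2.46 and 2.86 after 54 µg. NRCWE-045 lungs read Zmynd10 at 2.63, 2.59 and 2.14 after 18 µg and at 2.98, 2.04, 2.54, 2.84 and 2.31 after 54 µg. A control lung held the highest Zmynd10 value. Ccdc39, which with Ccdc40 forms the ruler that spaces the arms and links along the doublet, read 1.81, 2.05, 1.55, 1.78 and 1.39 in the controls. NRCWE-043 lungs read Ccdc39 at 2.07, 0.97, 0.78, 1.58 and 1.48 after 18 µg and at 1.82, 0.98, 2.33, 1.73 and 1.51 after 54 µg. NRCWE-044 lungs read Ccdc39 between 0.90 and 2.15 after 18 µg, with a median of 1.32, and at 2.13, 1.51, 1.38, 1.83 and 1.68 after 54 µg. NRCWE-045 lungs read Ccdc39 at 2.01, 1.22 and 1.44 after 18 µg and at 2.12, 1.25, 1.57, 1.56 and 1.09 after 54 µg. Ccdc39 groups overlapped in all comparisons.

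Radial spoke genes encode the struts between the doublets and the central pair. Rsph1, a spoke head protein, read 2.10, 2.21, 2.07, 2.29 and 1.56 in the controls. NRCWE-043 lungs read Rsph1 at 2.32, 1.62, 1.19, 2.24 and 2.04 after 18 µg and at 2.19, 1.92, 2.82, 2.16 and 2.33 after 54 µg. NRCWE-044 lungs read Rsph1 between 1.36 and 2.63 after 18 µg, with a median of 1.97, and at 2.55, 2.37, 2.05, 2.30 and 2.36 after 54 µg. NRCWE-045 lungs read Rsph1 at 2.27, 2.54 and 1.83 after 18 µg and at 2.25, 2.23, 1.82, 2.55 and 1.98 after 54 µg. The lowest and highest Rsph1 lungs were again those of NRCWE-043, at 18 and 54 µg. Rsph9, also of the spoke head, read 3.02, 2.90, 3.17, 3.25 and 3.13 in the controls. NRCWE-043 lungs read Rsph9 at 3.26, 2.81, 2.84, 3.10 and 2.66 after 18 µg and at 3.25, 2.72, 3.59, 2.99 and 2.98 after 54 µg. NRCWE-044 lungs read Rsph9 between 2.81 and 3.15 after 18 µg, with a median of 2.99, and at 3.42, 3.34, 3.15, 3.32 and 3.48 after 54 µg. NRCWE-045 lungs read Rsph9 at 3.13, 3.42 and 2.97 after 18 µg and at 3.24, 2.98, 2.96, 3.59 and 3.01 after 54 µg. At 54 µg of NRCWE-044, 4 of 5 lungs lay above every control and every 18 µg lung of that material, and 1 lay among them. Hydin, a central pair protein, read 2.04, 2.08, 1.76, 2.23 and 1.78 in the controls. NRCWE-043 lungs read Hydin at 2.72, 1.72, 0.64, 1.71 and 2.00 after 18 µg and at 2.42, 1.19, 1.98, 2.12 and 1.61 after 54 µg. NRCWE-044 lungs read Hydin between 1.43 and 2.41 after 18 µg, with a median of 1.66, and at 2.36, 2.17, 1.80, 2.11 and 2.48 after 54 µg. NRCWE-045 lungs read Hydin at 2.05, 2.21 and 1.82 after 18 µg and at 2.13, 1.92, 1.96, 2.15 and 2.06 after 54 µg. Both extremes of Hydin lay in the group at 18 µg of NRCWE-043. Spag16, also of the central pair, read 0.53, 0.65, 0.62, 0.64 and 0.41 in the controls. NRCWE-043 lungs read Spag16 at 0.68, 0.38, 0.27, 0.74 and 0.41 after 18 µg and at 0.73, 0.25, 1.18, 0.43 and 0.69 after 54 µg. NRCWE-044 lungs read Spag16 between 0.08 and 0.75 after 18 µg, with a median of 0.44, and at 0.93, 0.56, 0.50, 0.77 and 0.66 after 54 µg. NRCWE-045 lungs read Spag16 at 0.78, 0.54 and 0.37 after 18 µg and at 0.42, 0.02, 0.57, 0.83 and 0.50 after 54 µg. All Spag16 groups overlapped.

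Tektins and other proteins of the doublet lumen stiffen the microtubule wall. Tekt1, a tektin, read 4.29, 4.42, 3.95, 4.28 and 3.92 in the controls. NRCWE-043 lungs read Tekt1 at 4.28, 3.65, 3.15, 4.13 and 4.18 after 18 µg and at 4.42, 3.79, 4.69, 4.19 and 4.35 after 54 µg. NRCWE-044 lungs read Tekt1 between 3.78 and 4.48 after 18 µg, with a median of 4.10, and at 4.46, 4.35, 4.45, 4.17 and 4.44 after 54 µg. NRCWE-045 lungs read Tekt1 at 4.40, 4.26 and 3.98 after 18 µg and at 4.47, 3.85, 3.58, 4.30 and 3.89 after 54 µg. A single lung at 18 µg of NRCWE-043 was lowest, and all groups overlapped. Tekt2 read 0.91, 1.09, 0.44, 0.84 and 0.47 in the controls. NRCWE-043 lungs read Tekt2 at 1.07, 0.49, 0.29, 0.49 and 0.65 after 18 µg and at 0.80, 0.32, 1.34, 0.90 and 0.25 after 54 µg. NRCWE-044 lungs read Tekt2 between 0.26 and 0.96 after 18 µg, with a median of 0.47, and at 0.79, 0.55, 0.75, 0.92 and 0.68 after 54 µg. NRCWE-045 lungs read Tekt2 at 0.81, 0.46 and 0.63 after 18 µg and at 1.00, 0.67, 0.71, 0.61 and 0.40 after 54 µg. Its groups overlapped as well. Tekt4 read 2.95, 2.92, 3.20, 3.00 and 2.94 in the controls. NRCWE-043 lungs read Tekt4 at 3.25, 2.93, 2.35, 2.98 and 2.94 after 18 µg and at 3.12, 2.69, 3.36, 3.12 and 3.28 after 54 µg. NRCWE-044 lungs read Tekt4 between 2.72 and 3.36 after 18 µg, with a median of 3.04, and at 3.37, 3.22, 3.51, 3.13 and 3.33 after 54 µg. NRCWE-045 lungs read Tekt4 at 3.11, 3.15 and 3.02 after 18 µg and at 3.18, 3.02, 3.02, 3.23 and 3.16 after 54 µg. At 54 µg of NRCWE-044, 4 of 5 Tekt4 values lay above every control. Mns1 read -0.28, -0.21, -0.11, -0.40 and -0.50 in the controls. NRCWE-043 lungs read Mns1 at 0.08, -0.41, -0.42, -0.14 and -0.16 after 18 µg and at -0.04, -0.21, 0.49, 0.15 and -0.16 after 54 µg. NRCWE-044 lungs read Mns1 between -0.65 and 0.21 after 18 µg, with a median of -0.31, and at -0.09, 0.16, -0.06, 0.16 and 0.28 after 54 µg. NRCWE-045 lungs read Mns1 at -0.24, 0.04 and -0.20 after 18 µg and at -0.11, -0.19, -0.51, 0.30 and -0.31 after 54 µg. All 5 lungs at 54 µg of NRCWE-044 lay above all 5 controls for Mns1, the only ciliated gene whose groups did not overlap in that comparison (0.675% of all units were apart and higher there).

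Ak7, an adenylate kinase that supplies nucleotide to the axoneme, read 0.97, 1.36, 0.70, 1.35 and 0.82 in the controls. NRCWE-043 lungs read Ak7 at 1.33, 0.58, 0.48, 0.99 and 0.75 after 18 µg and at 1.66, 0.51, 1.46, 1.06 and 0.80 after 54 µg. NRCWE-044 lungs read Ak7 between 0.39 and 1.26 after 18 µg, with a median of 0.66, and at 1.57, 0.96, 0.94, 1.02 and 1.10 after 54 µg. NRCWE-045 lungs read Ak7 at 1.29, 0.71 and 0.70 after 18 µg and at 1.48, 0.62, 1.14, 1.14 and 0.80 after 54 µg. The Ak7 groups overlapped, with 1 lung at 54 µg of NRCWE-044 above its group. Tppp3, a tubulin-binding protein abundant in ciliated cells, read 5.28, 5.61, 5.34, 5.40 and 5.94 in the controls. NRCWE-043 lungs read Tppp3 at 5.49, 5.34, 5.07, 5.68 and 5.77 after 18 µg and at 5.40, 5.05, 5.71, 5.08 and 5.86 after 54 µg. NRCWE-044 lungs read Tppp3 between 5.33 and 5.76 after 18 µg, with a median of 5.47, and at 5.49, 5.26, 5.63, 5.15 and 5.47 after 54 µg. NRCWE-045 lungs read Tppp3 at 5.61, 5.36 and 5.23 after 18 µg and at 5.55, 5.27, 5.45, 5.08 and 5.51 after 54 µg. Tppp3 values ran from 5.05 to 5.94 over all lungs with overlapping groups, and a control lung was highest.

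**Figure D1:**
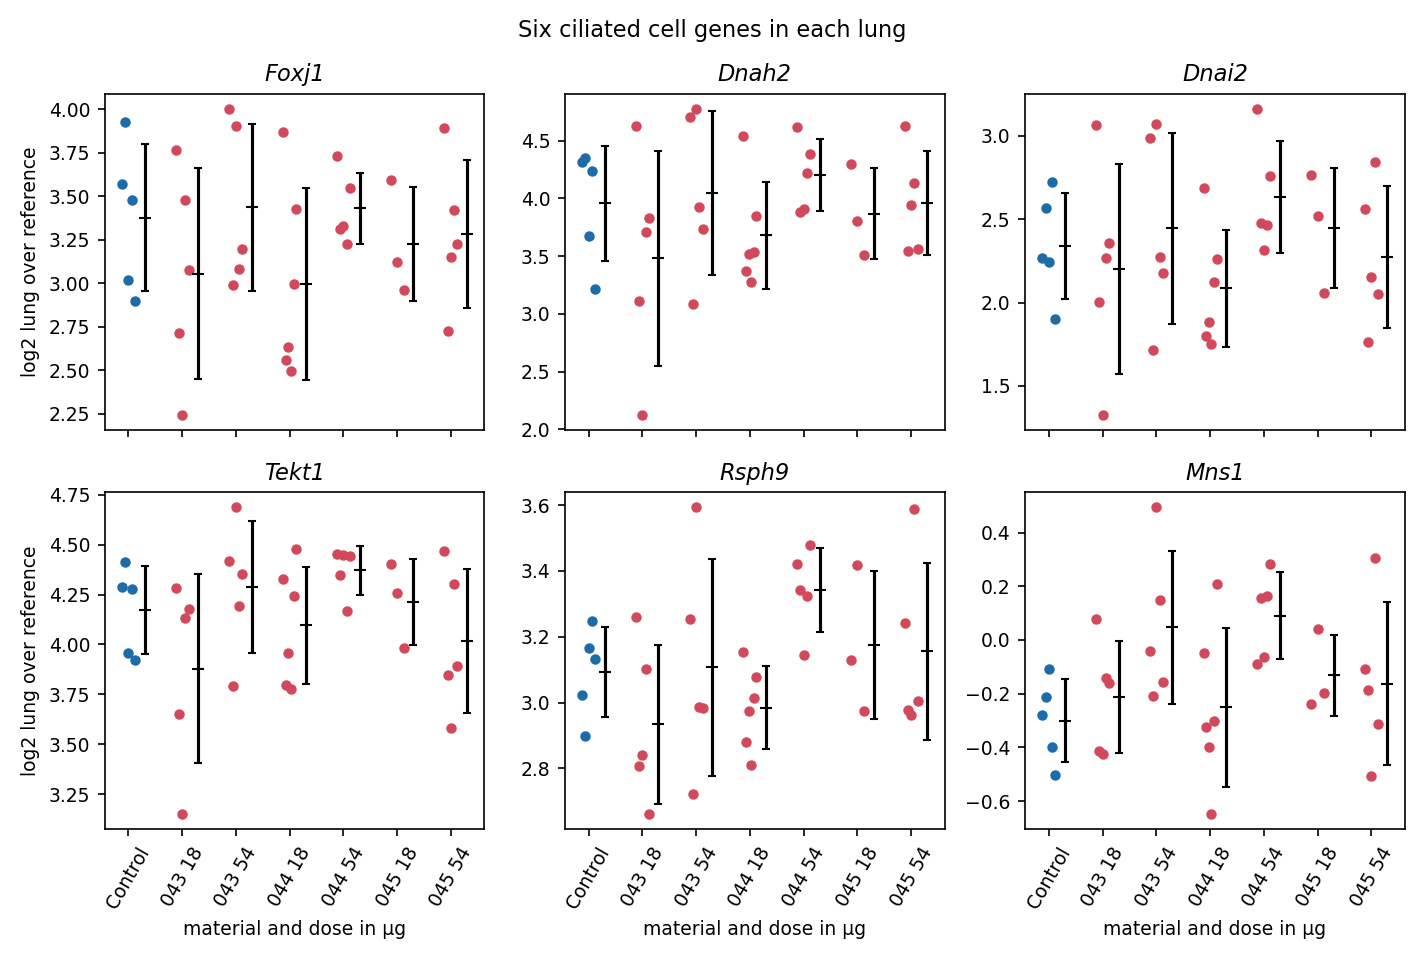
Log2 ratio of lung over reference for 6 ciliated genes (y axis) in each lung, by material code and dose in µg (x axis). Points are single lungs (5 controls in blue), and the black marks are group means with SD. The groups overlap in all panels except Mns1 at 54 µg of NRCWE-044 against the controls.

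Against the controls, most ciliated genes had lower means at 18 µg of NRCWE-043 and NRCWE-044 without any gene passing, and the size of the difference depended on slide and processing. The genes moved together from lung to lung (median r of a pair 0.672 over the arrays). Counts of genes higher or lower, here and in the other comparisons, are therefore not counts of separate observations. With NRCWE-043 at 18 µg 27 of 30 lay below the controls, with a median log2 change of -0.17 against -0.01 over all units, of which 46.4% lay above 0. The largest differences by moderated t were those of Tekt1 (-0.29 ± 0.19, SE), Ccdc39 (-0.34 ± 0.24) and Dnah2 (-0.48 ± 0.34), each with a limma adjusted p of 0.980. With NRCWE-044 at 18 µg 26 of 30 lay below, with a median of -0.15 against 0.00 over all units, of which 50.4% lay above 0. Ak7 (-0.33 ± 0.20), Zmynd10 (-0.37 ± 0.23) and Tekt2 (-0.24 ± 0.16) led there, with adjusted p-values of 1.000. Without replicate 3 of NRCWE-043 at 18 µg its median came to -0.01, and it was -0.08 with slide as a fixed block and -0.04 in Cy5 alone. The NRCWE-044 median was -0.0088 with processed signals, -0.10 with slide fixed and -0.05 in Cy5 alone. Within slides, both materials lay above the controls on slide 1 (28 and 25 of 30 genes higher) and below them on the other 2 slides that each shared with controls.

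At 54 µg most ciliated genes had higher means for both materials. With NRCWE-044 25 of 30 lay above the controls, with a median of 0.12 against 0.00 over all units, of which 50.1% lay above 0. Mns1 was higher by 0.39 ± 0.15 (limma adjusted p = 0.703), Tekt4 by 0.31 ± 0.13 (adjusted p = 0.794) and Rsph9 by 0.25 ± 0.13 (adjusted p = 0.903). At an unadjusted p under 0.05, 2 ciliated genes (Mns1 and Tekt4) were higher, against 3.24% of all units. The NRCWE-044 median was 0.04 without replicate 1, 0.20 with slide fixed, 0.26 in Cy5 alone and 0.30 with processed signals, and within slides it lay above 0 on 3 of 4 (-0.28 to 0.47). With NRCWE-043 at 54 µg 21 of 30 lay above, with a median of 0.07 against -0.01 over all units (46.8% above 0). Mns1 led with 0.35 ± 0.15 (limma adjusted p = 0.835), the 1 gene at an unadjusted p under 0.05 (2.52% of all units were higher), and Rsph1 followed Rfx2 with 0.23 ± 0.21 (adjusted p = 0.999). The second Rsph1 probe gave -0.06 ± 0.24. The NRCWE-043 median was -0.06 without replicate 3, 0.19 without replicate 2 and 0.17 in Cy5 alone, and within slides it lay above 0 on 2 of 3 (-0.38 to 0.38).

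NRCWE-045 had about as many ciliated genes above as below the controls. At 18 µg 13 of 30 lay above the controls (median -0.02; 50.7% of all units above 0), and at 54 µg 15 of 30 (median -0.00; 50.5% of all units), and both medians changed sign with the processing. With slide fixed they were 0.06 and 0.07, in Cy5 alone 0.14 and 0.13, and within slides they lay above 0 on 2 of 2 (0.08 to 0.15) and 2 of 4 (-0.22 to 0.17). Mns1 (0.17 ± 0.17, limma adjusted p = 0.884), Dnah11 (-0.19 ± 0.24, adjusted p = 0.923) and Rsph1 (0.16 ± 0.24, adjusted p = 0.939) led at 18 µg. Tppp3 (-0.14 ± 0.15) and Mns1 (0.14 ± 0.15) led at 54 µg beside Dnah9, with adjusted p-values of 1.000.

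Between doses of the same material, 54 µg lay above 18 µg in nearly all ciliated genes for NRCWE-043 and NRCWE-044 and in about as many as not for NRCWE-045. Because these genes moved together, such counts are not separate observations. With NRCWE-044 28 of 30 were higher, with a median of 0.31 against -0.00 over all units, of which 49.7% lay above 0. Rsph9 was higher by 0.36 ± 0.13 (limma adjusted p = 0.911), Mns1 by 0.34 ± 0.14 (adjusted p = 0.926) and Dnai2 by 0.55 ± 0.25 (adjusted p = 0.942). At an unadjusted p under 0.05, 5 of 30 were higher, against 2.89% of all units. With NRCWE-043 29 of 30 were higher, with a median of 0.25 against 0.00 over all units (50.8% above 0), and 1 gene had an unadjusted p under 0.05 (1.61% of all units were higher). That gene was Tekt1, at 0.41 ± 0.19 (limma adjusted p = 1.000), followed by Rsph1 at 0.40 ± 0.21 (second probe 0.09 ± 0.24) and Rfx3 at 0.22 ± 0.13 (other probes 0.17 ± 0.09 and 0.01 ± 0.12). With NRCWE-045 14 of 30 were higher (median -0.01; 48.8% of all units above 0), and Tekt1 was at -0.20 ± 0.22 (second probe 0.01 ± 0.26) and Rfx3 at -0.11 ± 0.14 (other probes -0.14 ± 0.10 and 0.03 ± 0.13), both with adjusted p-values of 1.000.

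Slides held several groups, so the dose differences were also taken within slides. For NRCWE-044 the median difference of the 30 genes was above 0 on 4 of 4 slides (0.10 to 0.73), with 1 lung per dose on each. For NRCWE-043 it was above 0 on 3 of 4 slides (-0.08 to 0.49), and for NRCWE-045 on 2 of 3 (-0.31 to 0.46). The NRCWE-043 median dropped to 0.10 without replicate 3 at 18 µg. That of NRCWE-044 ran from 0.22 to 0.39 with single arrays left out. A direct test of whether the dose difference itself differed between materials called 0 of 30 genes for each of the 3 pairs of materials (smallest limma adjusted p = 0.999) and 0% of all units. At an unadjusted p under 0.05 it gave 0 of 30 for NRCWE-043 against NRCWE-044 (2.8% of all units), 1 for NRCWE-043 against NRCWE-045 (2.96%) and 0 for NRCWE-044 against NRCWE-045 (2.87%). The median difference was -0.04 with 12 of 30 above 0 (49% of all units), 0.23 with 26 of 30 (52.2%) and 0.35 with 27 of 30 (51.2%) in that order.

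**Figure D2:**
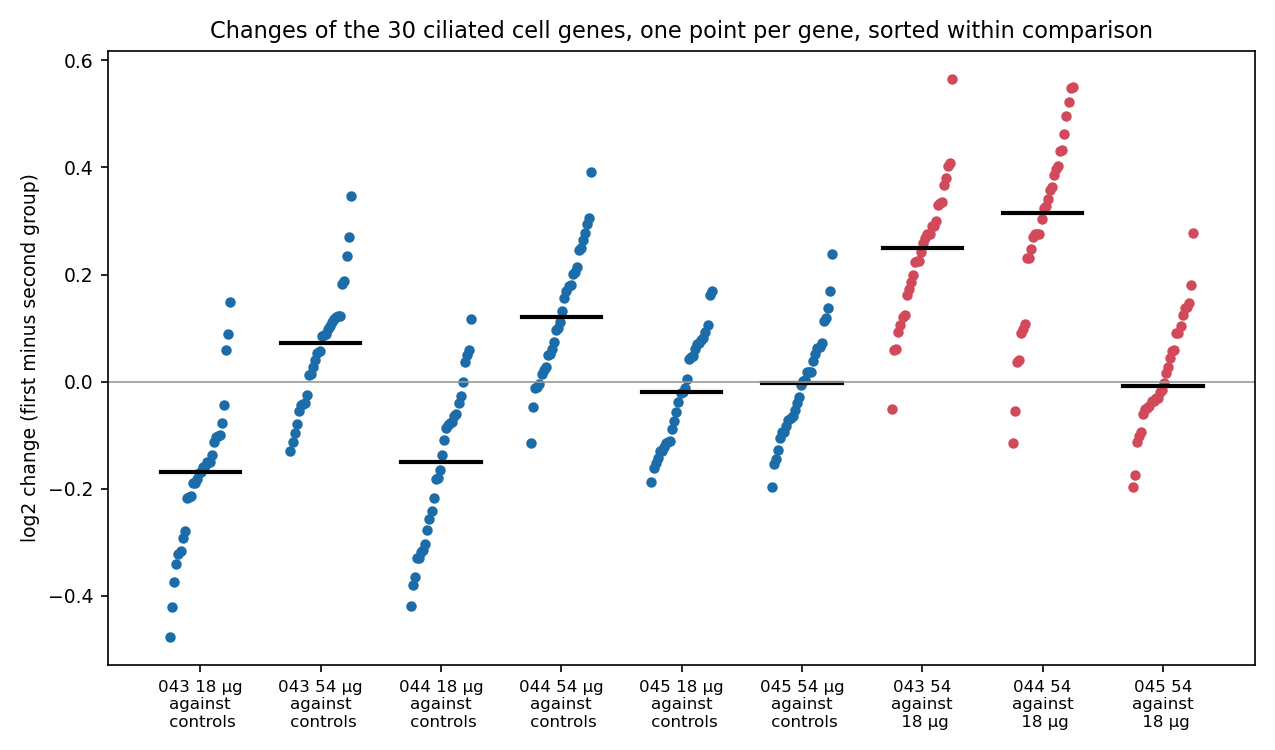
Log2 change (y axis) of each of the 30 ciliated genes in the 6 comparisons with controls (blue) and in 54 against 18 µg of each material (red), genes sorted within a comparison and medians as black bars. The medians of 54 against 18 µg lie at 0.25 for NRCWE-043, 0.31 for NRCWE-044 and -0.01 for NRCWE-045, and no gene passed the test.

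Materials at the same dose were compared in 6 pairs. At 18 µg NRCWE-043 lay below NRCWE-045 in 26 of 30 genes (median -0.17; 47.6% of all units above 0), with Rsph9 at -0.24 ± 0.15, Tekt1 at -0.33 ± 0.22 and Rsph1 at -0.33 ± 0.24 (limma adjusted p = 0.613, 0.614 and 0.653). NRCWE-044 lay below NRCWE-045 in 26 of 30 (median -0.15; 49.1% above 0), led by Rsph9 at -0.19 ± 0.15, Dnai2 at -0.36 ± 0.30 and Rsph1 at -0.25 ± 0.23 (second probe -0.59 ± 0.26). NRCWE-043 lay above NRCWE-044 in 11 of 30 (median -0.04; 47.8% above 0), with Tekt1 at -0.22 ± 0.18, Tekt4 at -0.15 ± 0.13 and Zmynd10 at 0.18 ± 0.23. The group at 18 µg of NRCWE-045 held only 3 lungs. Without replicate 3 of NRCWE-043 the median against NRCWE-045 was -0.03 and that against NRCWE-044 turned to 0.12. The latter was also above 0 with array weights (0.05) and in Cy5 alone (0.01). Without replicate 1 of NRCWE-045 the median of NRCWE-044 against it was -0.04. Within slides the 3 medians lay below 0 on 2 of 3 slides for NRCWE-043 against NRCWE-044, 1 of 2 for NRCWE-043 against NRCWE-045 and 2 of 3 for NRCWE-044 against NRCWE-045.

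At 54 µg NRCWE-044 lay above NRCWE-045 in 27 of 30 (median 0.14; 52.4% of all units above 0), led by Tekt1 at 0.35 ± 0.19, Mns1 at 0.25 ± 0.15 and Spag16 at 0.22 ± 0.15 (second probe 0.05 ± 0.13). NRCWE-043 lay above NRCWE-045 in 21 of 30 (median 0.07; 47.3% above 0), led by Tekt1 at 0.27 ± 0.19 (second probe -0.01 ± 0.23), Mns1 at 0.21 ± 0.15 and Rfx3 at 0.18 ± 0.13 (other probes 0.25 ± 0.09 and -0.07 ± 0.12). NRCWE-043 lay above NRCWE-044 in 7 of 30 (median -0.05; 46.1% above 0), led by Rsph9 at -0.23 ± 0.13, Tekt4 at -0.19 ± 0.13 and Hydin at -0.32 ± 0.24 (second probe 0.09 ± 0.17). The median of NRCWE-043 against NRCWE-045 turned to -0.03 with processed signals and to -0.04 without replicate 3 of NRCWE-043, was 0.0098 with median centring, and lay above 0 on 1 of 4 slides. That of NRCWE-043 against NRCWE-044 turned to 0.08 without replicate 2 of NRCWE-043 and lay above 0 on 1 of 4 slides. That of NRCWE-044 against NRCWE-045 stayed above 0 under the alternatives (0.03 with median centring, 0.05 without replicate 2 of NRCWE-045) and on 4 of 5 slides. The differences between materials given without a p had limma adjusted p-values from 0.926 to 1.000. Over all 7 groups the smallest p-values were those of Mns1 (0.0827, limma adjusted p = 0.827), Rsph9 (0.0934, adjusted p = 0.846) and Tekt4 (0.110, adjusted p = 0.882).

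The ciliated genes moved together from lung to lung. A score was taken as the mean over the 30 genes of each log2 ratio centred on that gene's mean over the 34 arrays. It ran from -0.75 in a lung at 18 µg of NRCWE-043 to 0.56 in a lung at 54 µg of the same material, a range of 1.31 (2.48-fold). Group means lay between -0.15 ± 0.44 (SD, n = 5, NRCWE-043 at 18 µg) and 0.16 ± 0.16 (n = 5, NRCWE-044 at 54 µg), with the controls at 0.03 ± 0.21. NRCWE-043 at 54 µg was at 0.09 ± 0.40 (n = 5). Group accounted for an R² of 0.134 and slide for 0.570. Slide 1 averaged 0.30 ± 0.11 (n = 8) and slide 2 averaged -0.30 ± 0.27 (n = 8). With group in the model, a limma F test of slide called 23 of 30 ciliated genes, against 48.3% of all units, and Dnah9, Dnai1, Rsph1, Rsph9, Tekt4, Hydin and Mns1 were the 7 not called. In the Cy5 channel alone the R² was 0.259 for group and 0.144 for slide, and that score correlated at 0.764 with the score of the ratios. The score also moved with array brightness (r = 0.594 with the share of probes above background in Cy3 and 0.419 in Cy5, over 34 arrays). The part of slide and brightness in the score was not tested further.

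**Figure D3:**
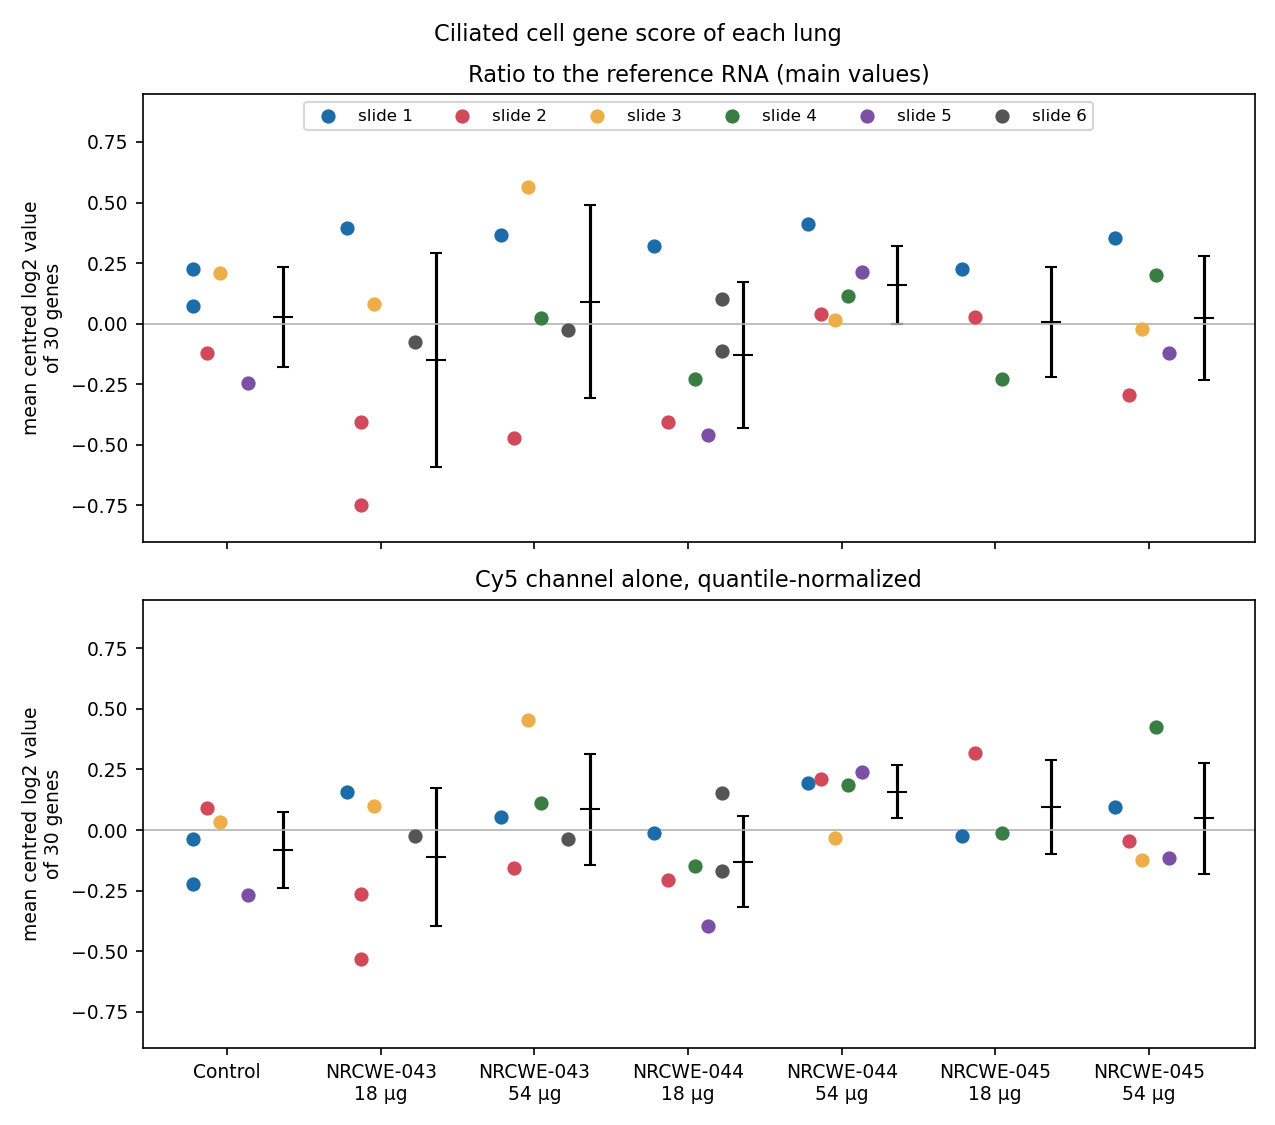
Score of the 30 ciliated genes (y axis, mean centred log2 value) in each lung by group, from the ratios (upper panel) and from the Cy5 channel alone (lower panel). Points are lungs coloured by slide, and black marks are group means with SD. In the upper panel slide 1 averages 0.30 and slide 2 -0.30, and the spread by slide is smaller in the lower panel.

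Pairs of ciliated genes had a median Pearson r of 0.672 over the 34 arrays, which share slides and reference RNA, and 314 of 435 pairs (72.2%) lay above 0.5. With group and slide means removed the median was 0.619. Against the mean of the other genes, the inner arm heavy chains Dnah2 (0.958) and Dnah6 (0.950), the tether protein Cfap43 (0.956), Dnai2 (0.944), the outer arm heavy chain Dnah5 (0.940) and Foxj1 (0.933) were closest. Furthest were Tppp3 (0.285), Dnah9 (0.379), Rfx2 (0.401) and Dynlrb2 (0.481), a dynein light chain. Mns1 came to 0.611, and to 0.839 once group and slide were removed. Dynlrb2 came to 0.657 with group and slide removed and to 0.891 in the Cy5 channel alone. Others fell: Rfx3 from 0.652 to 0.373 with group and slide removed, and Tekt2 from 0.761 to 0.041 in Cy5 alone. Genes holding GTTGCC in the promoter windows described above had a median r of 0.819 (n = 15), and those without it 0.892 (n = 11). With the scanner software's processed signals the median pair r was 0.286. There the r with the other genes was lower for most genes, including those named as closest. It was 0.640 for Dnah2, 0.511 for Cfap43, -0.046 for Dnah6 and -0.18 for Drc1. Only Dnah9 (0.498) and Mns1 (0.649) were higher than in the main values.

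**Figure D4:**
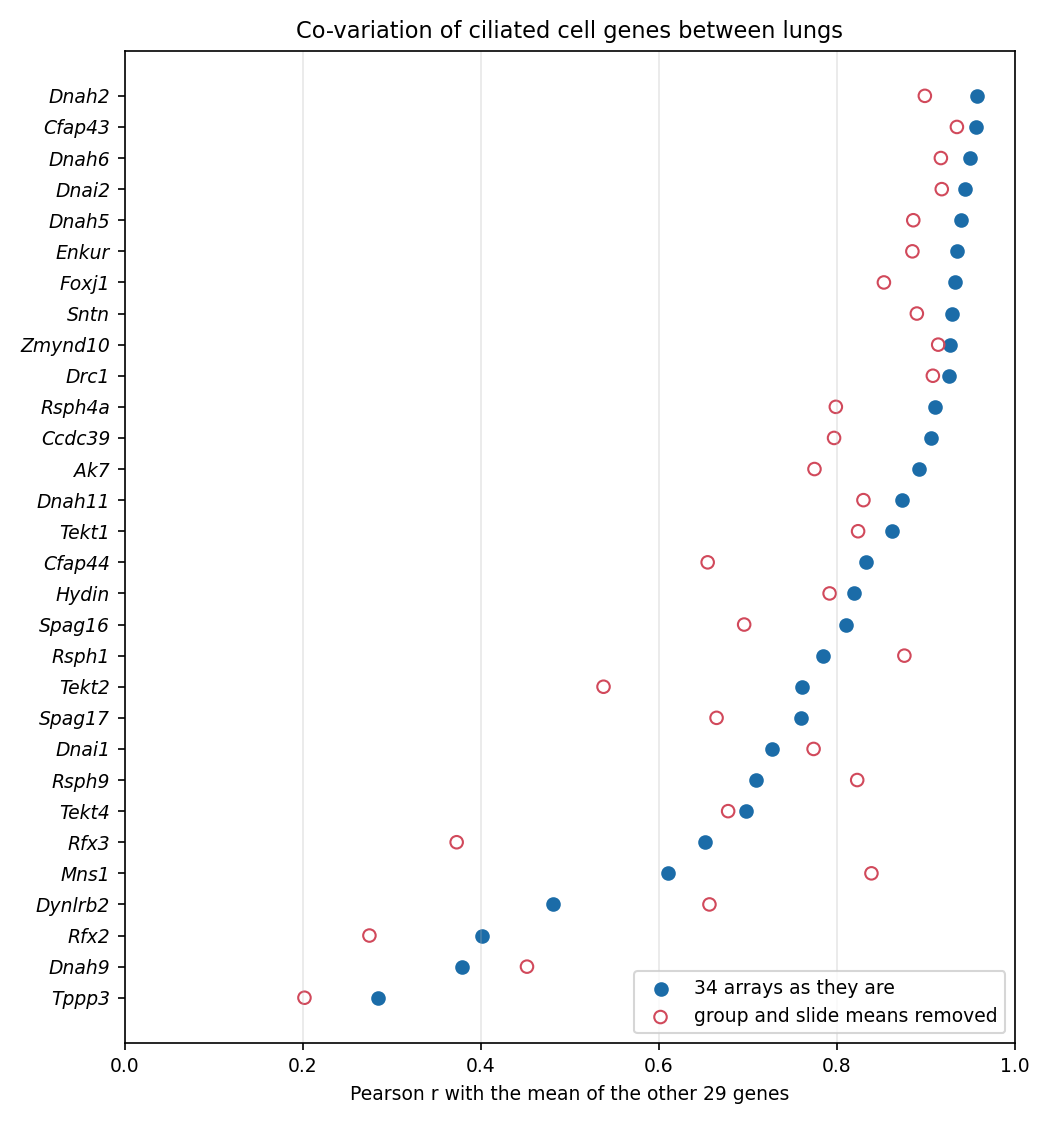
Pearson r of each ciliated gene with the mean of the other 29 (x axis), over 34 arrays as they are (filled) and with group and slide means removed (open), sorted by the first. Dnah2 is highest at 0.958 and Tppp3 lowest at 0.285.

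Outside the 30 genes, 1700001L19Rik (r = 0.967), the axoneme gene Cfap45 (0.966), the inner arm heavy chain Dnah10 (0.965), Stmnd1 (0.962), Kif6 (0.961), Ccdc78 (0.961), Spag6l (0.959), Casc1 (0.959), Ttll9 (0.959) and Fam47e (0.958) followed the score most closely over the 34 arrays. Of all units 269 (0.918%) had an r of 0.8 or more, among them 19 of the 30 ciliated genes, whose own values enter the score. Scores of other lists were set against it in the same way. The list of other ciliated cell markers (36 tested) had r = 0.991 and other cilium motility genes (53 tested) 0.965. Intraflagellar transport and BBSome genes (35 tested), shared by motile and primary cilia, had 0.528, and 0.901 with group and slide removed. Among ciliogenesis regulators (23 tested; r = 0.681) Deup1 (0.746) and Trp73 (0.728) followed the score, while Mcidas (-0.03) did not and Plk4, the centriole kinase, ran opposite (-0.65).

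Markers of other lung cells moved with the score to different degrees. Neuroendocrine cell genes (9 tested) had r = 0.853 (0.758 in Cy5 alone), led by Calca at 0.773. Club cell genes (16 tested) had 0.514 (0.568), although the secretoglobin Scgb1a1 was at -0.27. Smooth muscle genes (9 tested) had 0.679 (0.603). Endothelial genes (10 tested) had 0.585 in the ratios, 0.175 with group and slide removed and -0.41 in Cy5 alone, so that relation turned with the processing. Fibroblast genes had 0.705, 0.486 with group and slide removed and 0.179 in Cy5 alone. Airway gland genes had 0.564 (0.551 in Cy5 alone), goblet cell genes 0.378 (0.537), basal cell genes 0.254 (0.359) and airway cartilage genes 0.089 (0.228). By rank (Spearman) these came to 0.675 (0.64), 0.312 (0.46), -0.10 (0.081) and -0.20 (0.071) in that order. The basal cell and cartilage relations thus did not hold by rank. Alveolar type 1 genes had 0.168 in the ratios and -0.53 in Cy5 alone. Alveolar type 2 genes (12 tested) had 0.035 (-0.20 in Cy5 alone) and leukocyte genes (12 tested) 0.120 (-0.33 with group and slide removed, -0.22 in Cy5 alone). Lists of tissue outside or around the lung were set against the score as well. Fat cell genes had 0.451 (0.503 in Cy5 alone), heart muscle genes 0.214 (0.344) and liver genes 0.155 (0.269). By rank they had 0.585 (0.632), 0.317 (0.326) and 0.12 (-0.048) in that order. Mesothelial and thymus genes had -0.19 (-0.30). The part of tissue sampling in these relations was not tested.

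**Figure D5:**
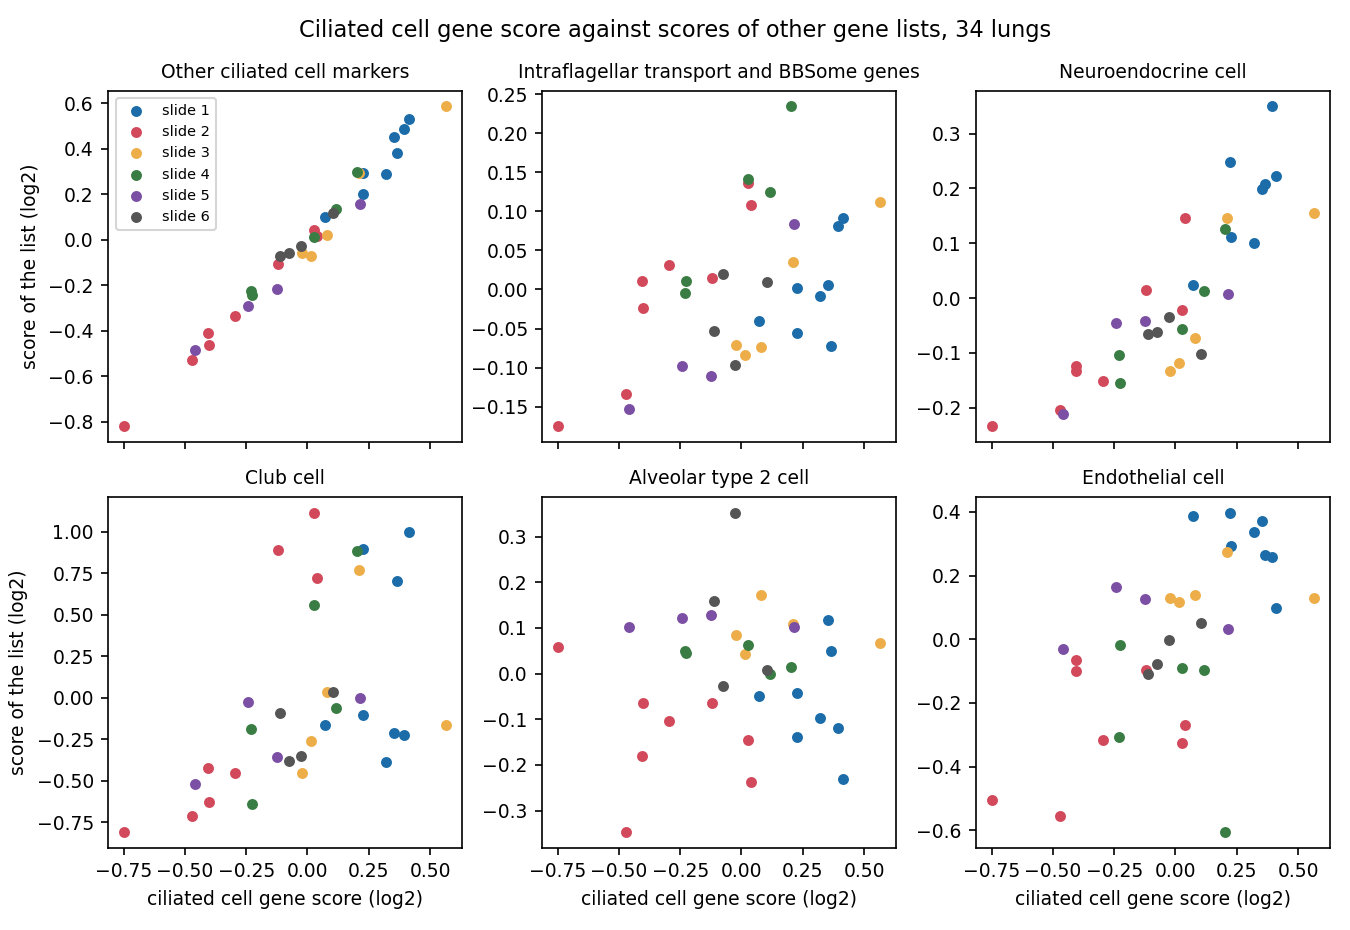
Score of the 30 ciliated genes (x axis, log2) against the scores of 6 other gene lists (y axes, log2) in 34 lungs coloured by slide. Other ciliated cell markers follow it at r = 0.991, neuroendocrine cell genes at 0.853 and alveolar type 2 genes at 0.035.

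Other cilium lists were compared by dose in the same way, with no test between lists. Other ciliated cell markers (r = 0.991) and other motility genes (0.965) followed the score closely. Their counts are therefore not observations separate from those of the 30 genes. In 54 against 18 µg of NRCWE-044, 47 of 53 other motility genes (median 0.25), 34 of 36 other ciliated markers (0.27), 30 of 35 transport genes (0.08) and 16 of 23 regulators (0.05) were higher. With NRCWE-043, 45 motility genes (0.17) and 34 ciliated markers (0.27) were higher, but 22 transport genes (0.02) and 10 regulators (-0.01). With NRCWE-045 the counts were 24 (-0.01), 17 (-0.02), 16 (-0.02) and 8 (-0.01), and no gene of these lists passed between doses. Of all units 49.7% were higher with NRCWE-044, 50.8% with NRCWE-043 and 48.8% with NRCWE-045. Cfap300, a dynein assembly factor, was the only gene of the cilium lists that passed in any of the 15 comparisons. It was lower with NRCWE-043 than with NRCWE-045 at 18 µg, at -0.65 ± 0.14 on the log2 scale (limma adjusted p = 0.0297; n = 5 against 3). It no longer passed under 5 of 13 alternatives (processed signals, median centring, slide fixed, array weights and Cy5 alone; limma adjusted p from 0.0635 to 0.553), nor without replicate 2 or 3 of NRCWE-045 or replicate 2, 3 or 5 of NRCWE-043 at 18 µg (0.0611 to 0.153), and its change ran from -0.75 to -0.49 over all alternatives and left-out arrays. Its r with the score was 0.185. In the same comparison 4 of 10 liver marker genes passed, against 0.43% of all units, among them Alb at -2.74 ± 0.58 (limma adjusted p = 0.0272). The score of the liver list was 0.59, 3.75 and 0.30 in the lungs at 18 µg of NRCWE-045, replicate 2 being the highest. Without that replicate 0 units passed in this comparison, where 126 passed with it. The part of the liver genes and of this lung in the Cfap300 result was not tested.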

How the data were processed

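Lung RNA of 34 mice (Cy5) was measured against a reference RNA (Cy3) on two-colour arrays with no dye swap. The authors extracted spots with Agilent Feature Extraction 11.0.1.1, per the file headers, and the deposited scanner files give median intensity of spot and local background per channel. A deposited table of the whole series holds log2 ratios of Cy5 to Cy3 for 55681 probes, each array centred near 0 (medians -0.04 to -0.00), by steps not given in the sources used here, and was an alternative. The plan named median signals, or mean signals if deposited; medians were used.

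Background was corrected by normexp (offset 50) and ratios by loess within arrays. Control and irregular spots had weight 0, and repeats of a probe were averaged, in R 4.3.3 with limma 3.58.1 and statmod 1.5.0. RefSeq accessions named 27235 of 55681 probes, and the other 28446 were tested unnamed. The brightest probe stood for a gene, and units detected over background by Cy5 on 3 or more arrays entered the test. A model of 7 group means over all 34 arrays gave 15 comparisons, adjusted by Benjamini-Hochberg at 0.05; it was tested on simulated data. Replicates are numbered in deposit order and pair nothing.

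The members and lists were chosen with earlier results of these data known. Changes are printed for the 3 members with the largest moderated t in each comparison and the 3 smallest p-values over all groups, and per-array values for these and Foxj1. Genes outside the lists are the 10 most correlated with the score. Of other lists, counts, medians and the leading gene are given. Alternatives were other background, scaling, probe, filter, slide and weighting choices, each array left out in turn and, chosen after seeing the data, Cy5 alone, the slide test and the test of differences between dose changes.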

Additional observations from a re-analysis of the deposited data

Results flagged for a closer look

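Groups of 4 to 10 lungs were searched for a value far from the rest in 120 sets of values, from 19 genes and from the score of the ciliated genes. Of these sets 3 stood out, all of single genes. Chance flags about 1 in 20 groups. Ak7 in replicate 1 at 54 µg of NRCWE-044 had a log2 ratio of 1.57, where the other lungs of that group lay between 0.94 and 1.10. Tekt4 in control replicate 3 had 3.20, where the other controls lay between 2.92 and 3.00. Dnah9 in control replicate 4 had 0.20, where the other controls lay between -0.04 and 0.01, and no control was above background for Dnah9.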

How the results depend on the processing

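No ciliated gene passed in any comparison under any alternative, slide as a block and each array left out included. Medians of the 30 genes kept their sign under all alternatives and left-out arrays in both comparisons of 18 µg of NRCWE-043 and NRCWE-044 with controls, at 54 µg of NRCWE-044 against controls, between doses of NRCWE-043 and NRCWE-044, and in NRCWE-043 and NRCWE-044 against NRCWE-045 at 18 µg and NRCWE-044 against NRCWE-045 at 54 µg; the other 7 turned under at least 1. Counts of all genes passing did move. With processed signals NRCWE-043 against NRCWE-044 at 18 µg gave 1, NRCWE-043 against NRCWE-045 3 at 18 and 0 at 54 µg, NRCWE-044 against NRCWE-045 at 54 µg 1, and the test over 7 groups 2. NRCWE-043 against NRCWE-045 at 18 µg gave 206 without background subtraction, 12 with median centring, 21 with slide as a fixed and 397 as a random block, 0 with array weights and 0 in Cy5 alone. NRCWE-043 against NRCWE-044 at 18 µg gave 0 with median centring, 1 with the series table, with the mean of probes and with a robust prior, 0 and 11 with slide fixed and random, and 6 with array weights. NRCWE-044 at 54 µg against controls gave 1, 8 and 29 with slide fixed, slide random and array weights, and NRCWE-045 at 54 µg 1 with slide fixed and 1 in Cy5 alone. NRCWE-043 against NRCWE-044 at 54 µg gave 1, 22 and 2 with slide fixed, slide random and array weights. NRCWE-043 against NRCWE-045 at 54 µg gave 4 with slide random, 6 with array weights and 0 with a robust prior; NRCWE-044 against NRCWE-045 at 54 µg gave 6 and 5 with the first 2 of these. The dose comparison of NRCWE-044 gave 1 with array weights. The test over 7 groups gave 1, 128, 59 and 2 with slide fixed, slide random, array weights and Cy5 alone. The cause was not tested.

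Leaving out single arrays gave 0 to 3 (NRCWE-043 at 54 µg), 0 to 13 (NRCWE-044 at 54 µg) and 0 to 110 (NRCWE-045 at 18 µg) against controls, 0 to 3 and 0 to 21 between doses of NRCWE-044 and NRCWE-045, 0 to 34, 0 to 428 and 0 to 133 at 18 µg and 0 to 3, 0 to 3 at 54 µg between materials, and 2 to 85 over 7 groups. In Cy5 alone the sign turned for Tekt1 (0.073) at 18 µg of NRCWE-043 against controls, Dnah11 (0.034) at 18 µg of NRCWE-045 against controls, and Tekt1 (0.15) and Tekt4 (0.048) in NRCWE-043 against NRCWE-044 at 18 µg. Rsph1 at 18 µg of NRCWE-045 against controls ran from -0.0015 without replicate 2 to 0.35 without replicate 3. No paired analysis was possible because replicate numbers follow the deposit order and pair no lungs across groups; slide, which spans groups, was the block. Signal over background limits Dnah9. The reference signal limits the 21 genes above background in Cy3 on fewer than all arrays, and most of all the 5 above it on none. Between probes of a gene r ran from 0.068 (Cfap43) to 0.917 (Rsph4a), and 48 of 135 changes had opposite signs.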
